A study of Mus musculus with 24 samples.

Results

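Genes that build triglyceride, load it onto very low density lipoprotein (VLDL) or break it down at the vessel wall were described across 24 mouse livers. The 10 members were Gpam, Agpat2, Agpat3, Dgat1, Dgat2, Mogat1, Mttp, Tm6sf2, Lpl and Lipc, out of 37325 genes with a probe on the array. They were chosen by name, and each was read from its brightest probe, the one with the highest mean log2 signal over the 24 arrays. All 10 names were found, and the brightest probe of each was well above background on every array, so no member was lost to the filter on dim probes.

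The livers came from male mice aged 12 weeks, in 4 groups of 6, with 1 array per mouse. LKO mice carried albumin-Cre and homozygous floxed alleles of p110α (Pik3ca), the catalytic subunit of the insulin-responsive kinase PI3Kα. The deletion was thus driven in hepatocytes, and the albumin-Cre animals were of the C57BL/6J strain. LWT mice were Cre-negative littermates that carried the same floxed alleles. Fed mice had free access to chow, Fasted mice had been without food for 24 h, and all were killed at zeitgeber time 16, in the dark phase. The question was how fasting and feeding shape these genes in liver, and whether they do so alike with and without hepatocyte p110α.

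Triglyceride is assembled on glycerol-3-phosphate, which receives fatty acids in turn from a glycerol-phosphate acyltransferase and an acylglycerol-phosphate acyltransferase before a diacylglycerol acyltransferase adds the last one. A parallel route starts from monoacylglycerol. The liver stores the product in droplets or transfers it to apolipoprotein B for secretion as VLDL, whose triglyceride is then hydrolysed by lipases in the capillaries and in the liver sinusoids. Insulin after a meal favours synthesis, while fasting brings fatty acids from adipose tissue to the liver.

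Gpam and Mttp were the members whose response to fasting differed between the genotypes. Their promoters are shown because they mark where those 2 genes start, as RefSeq places them on GRCm38.p6. RefSeq promoter entries were matched by symbol for 6 of the 10 members, with 8 windows in all. Each window below is the 250 bases before a start site, written 5′ to 3′ on the gene's strand. Capitals mark a match to one of 7 letter strings searched on both strands.
Gpam, chr19:55127239-55127488, minus strand: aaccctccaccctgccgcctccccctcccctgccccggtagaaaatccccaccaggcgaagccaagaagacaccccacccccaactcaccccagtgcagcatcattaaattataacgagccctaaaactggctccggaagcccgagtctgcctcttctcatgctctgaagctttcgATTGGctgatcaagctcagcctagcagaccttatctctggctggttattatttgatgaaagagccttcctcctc
Gpam, chr19:55099478-55099727, minus strand: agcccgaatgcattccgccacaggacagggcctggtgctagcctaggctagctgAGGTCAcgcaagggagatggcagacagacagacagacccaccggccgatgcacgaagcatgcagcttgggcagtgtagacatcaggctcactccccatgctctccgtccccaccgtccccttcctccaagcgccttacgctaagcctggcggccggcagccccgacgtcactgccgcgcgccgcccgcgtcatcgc
Mttp, chr3:138143419-138143668, minus strand: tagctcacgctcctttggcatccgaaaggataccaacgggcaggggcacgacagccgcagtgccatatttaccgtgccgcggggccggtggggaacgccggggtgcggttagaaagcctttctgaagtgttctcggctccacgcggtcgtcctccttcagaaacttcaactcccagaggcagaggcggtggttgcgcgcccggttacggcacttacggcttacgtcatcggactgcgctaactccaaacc

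The first Gpam window held CCAAT, read as ATTGG on the printed strand, between 74 and 70 bases before the start. CCAAT was present in 33.9% of 32841 promoter windows of the same length. The second Gpam window held AGGTCA, a nuclear receptor half-site found in 14% of the windows, between 196 and 191 bases before the start. The E-box CACGTG (in 6.02% of all windows), the forkhead strings GTAAACA (3.17%) and CAAAACA (5.56%), the sterol-element string TCACCCCAC (0.496%) and the HNF4-type string CAAAGTCCA (0.384%) were in neither Gpam window. None of the 7 strings was in the Mttp window. Of the other members' windows, those of Agpat2, Agpat3 and Mogat1 held none of the 7 strings, and both windows of Lipc held CCAAT, 1 of them with AGGTCA as well. Such matches describe the letters only.

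The probe for Pik3ca, the targeted gene, gave a log2 normalised signal of 11.71 to 12.25 (median 11.88) in the LWT Fed livers and 12.30 to 13.02 (median 12.49) in the LKO Fed livers. Its signal was 1.49-fold higher in the arrays labelled LKO than in those labelled LWT in the Fed state (log2 difference 0.58 ± 0.11 SE, adjusted p = 0.00156), and the log2 difference in the Fasted state was -0.02 ± 0.12 (adjusted p = 0.931). The probe lies at chr3:32364747-32364806 on mm9. Where it lies relative to the deleted exons was not examined, and a probe outside them does not check the genotype, so the genotypes below are those of the labels.

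Between 54.7% and 63.0% of probes were well above background per array, and the arrays were spread over 3 slides with 2 of each group on every slide. LKO Fasted replicates 1 and 2 stood apart from the rest of their group on the second principal component (14.6% of the variance). Hepatocyte markers were among the brightest probes. The signal of Alb, 18.93 to 19.01 on every array, lies at the top ranks that quantile normalisation sets, so it does not measure hepatocyte content. Ttr, of the same list, was lower in LKO (-0.21 when Fed, adjusted p = 0.00732, and -0.41 when Fasted, adjusted p = 2.2e-05), and Apoa1 was higher when Fed (0.28, adjusted p = 0.0293). Of the 6 skeletal muscle markers, Ckm, Acta1 and Actn3 were not well above background on any array, while Myh4 and Tnnt3 were on all and Myl1 on most. Markers of other cell types differed by genotype. Of 4 cholangiocyte markers, 3 were lower in LKO when Fed (log2 difference of Spp1 -1.50, of Krt19 -0.56 and of Epcam -0.40) and 2 when Fasted (Spp1 -2.11 and Epcam -0.42), and their summed signal was 8.41 to 10.69 in LKO and 10.53 to 11.67 in LWT livers. Epcam was well above background on all LWT arrays but on only 2 of 6 LKO Fed and 1 of 6 LKO Fasted arrays, so the size of its differences is uncertain. Of 5 adipocyte markers tested, 1 (Cfd) was lower in LKO in both states (-2.78 and -3.04) and 4 did not pass. Cfd was well above background on only 3 of 6 LKO Fed and 5 of 6 LKO Fasted arrays, so the size of its differences is uncertain too. Of 6 endothelial markers, Lyve1 (-0.88) and Gpihbp1 (-0.44) were lower in LKO when Fed. Of 6 pancreatic acinar markers, Cpa1, Pnlip and Amy2b were not well above background on any array, while Ctrb1 was lower in LKO in both states (-0.35 and -0.31) and Cela1 when Fasted (-0.76). With fasting, Krt19 fell in LWT and LKO (-0.67 and -0.59), as did Cela1 (-0.60 and -1.04) and the stellate cell marker Lrat (-0.90 and -0.95), whereas Dcn, of the same stellate list, rose (0.25 and 0.26). The part of these markers in the members' differences was not tested. Because whole liver was measured, fewer cells of a type and less RNA per cell cannot be told apart.

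Levels are given as log2 of the quantile-normalised median spot signal, and differences as log2 fold changes ± SE from limma with slide as a term and arrays weighted. A fitted difference can therefore depart slightly from the difference of the plain group means. A member passed where its Benjamini-Hochberg adjusted p over all 32197 probes was at most 0.05. In LWT mice 5 of 10 members passed for fasting, 3 higher and 2 lower, against 40.7% of 21488 genes (19.4% higher, 21.3% lower). In LKO mice 6 of 10 passed, 4 higher and 2 lower, against 41.3% of genes (19.6% higher, 21.7% lower). Genotype separated 5 members in the Fed state, all lower in LKO, against 16.2% of genes (8.72% higher, 7.47% lower). In the Fasted state 3 members differed by genotype, 2 higher and 1 lower, against 20% of genes (9.79% higher, 10.2% lower). The fasting change itself differed between genotypes in 2 members, both with a more positive change in LKO, against 7.53% of genes (3.93% more positive, 3.6% more negative).

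With a fold above 1.5 added to the rule, the counts were 2 members for fasting in LWT (9.98% of genes), 4 for fasting in LKO (12.7%), 2 for genotype in the Fed state (3.83%), 2 for genotype in the Fasted state (4.01%) and 1 for the difference between the fasting changes (2.97%). The members' median log2 fold change was -0.069 for fasting in LWT, 0.033 for fasting in LKO, -0.13 for genotype in the Fed state and -0.0086 for genotype in the Fasted state. The corresponding medians over all genes were -0.0068, -0.021, -0.014 and -0.0037. With fasting, members that passed lay on both sides of 0 in either genotype.

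**Figure D1:**
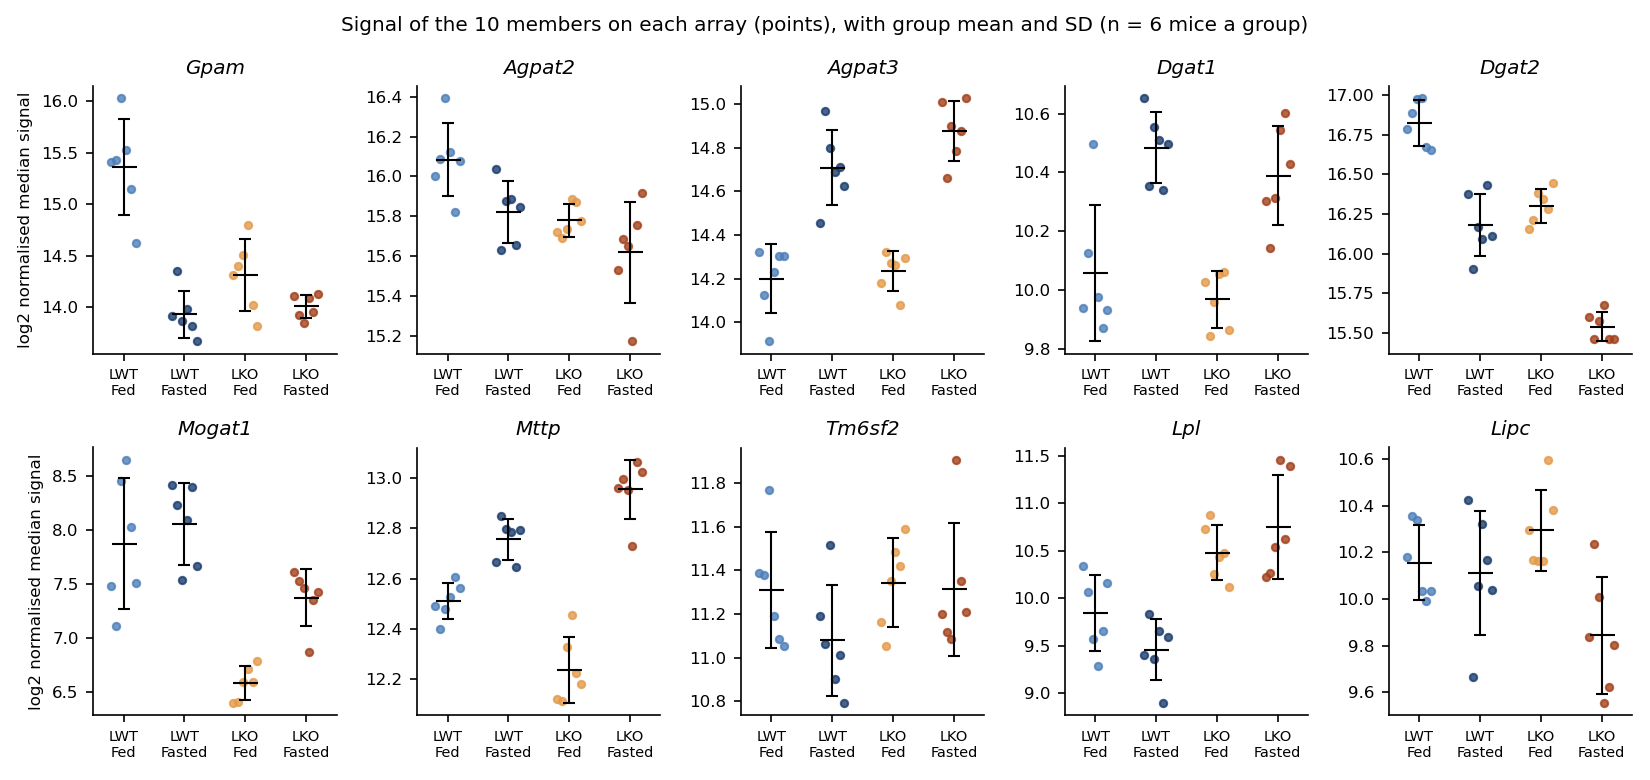
Log2 normalised median signal (vertical axis, a separate scale for each panel) of the 10 members on each of the 24 arrays; points are single mice, and bars give the group mean and SD of 6 mice. Gpam was highest in the LWT Fed livers, Dgat2 stepped down from LWT Fed to LKO Fasted, Mogat1 was lowest in LKO Fed and Mttp highest in LKO Fasted.

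Gpam encodes the mitochondrial glycerol-3-phosphate acyltransferase, which catalyses the first acylation. Its probe lies at chr19:55142203-55142262 on mm9, the build of all probe positions here. Its signal ranged from 14.62 to 16.03 (median 15.42) in LWT Fed livers and from 13.67 to 14.35 (median 13.89) in LWT Fasted livers. In LKO livers it ranged from 13.82 to 14.80 (median 14.36) when Fed and from 13.84 to 14.12 (median 14.02) when Fasted. The LWT Fed livers were thus the high group, every one of them above every LWT Fasted liver, while the other 3 groups overlapped one another.

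Gpam fell 2.64-fold with fasting in LWT (log2 fold change -1.40 ± 0.16, adjusted p = 5.41e-07), the largest fasting change among the members in LWT. In LKO the change was -0.37 ± 0.18 (95% interval -0.74 to -0.0014), and it did not pass (adjusted p = 0.102). The difference between both changes passed, at 1.03 ± 0.24 on the log2 scale (adjusted p = 0.0123). Within the Fed state Gpam was 1.90-fold lower in LKO (log2 difference -0.92 ± 0.17, adjusted p = 0.000734), with 1 LWT Fed liver inside the LKO range. In the Fasted state the log2 difference between the genotypes was 0.11 ± 0.18 (95% interval -0.26 to 0.47, adjusted p = 0.725).

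Within the 3 slides taken singly, the fasting change of Gpam in LWT was -1.58, -1.53 and -1.18, and that in LKO was -0.10, -0.27 and -0.54. The genotype difference in the Fed state was -1.48, -1.26 and -0.42, so its direction was shared by all 3 slides but its size was not. A second Gpam probe, at chr19:55145403-55145462, gave -1.86 for fasting in LWT (adjusted p = 1.07e-06) and 1.18 for the difference between the genotypes' changes (adjusted p = 0.0365). With that probe the fall in LKO passed too (-0.68, adjusted p = 0.0322). It also passed with the brightest probe when LWT Fed replicate 6 or LKO Fed replicate 6 was left out (adjusted p = 0.0286 and 0.0442), or when only the 2 LKO groups were fitted (adjusted p = 0.0490).

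Agpat2 and Agpat3 encode acyltransferases that add the second fatty acid, to lysophosphatidic acid. Agpat3 (probe at chr10:77736356-77736415) ranged from 13.91 to 14.32 (median 14.27) in LWT Fed and from 14.46 to 14.97 (median 14.70) in LWT Fasted livers. It ranged from 14.08 to 14.32 (median 14.27) in LKO Fed and from 14.66 to 15.03 (median 14.89) in LKO Fasted livers. In either genotype each Fasted liver was above each Fed liver, and the genotypes overlapped in both states.

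Agpat3 rose 1.35-fold with fasting in LWT (log2 fold change 0.43 ± 0.07, adjusted p = 4.22e-05) and 1.58-fold in LKO (0.66 ± 0.08, adjusted p = 4.38e-07). The difference between both changes was 0.23 ± 0.10 (95% interval 0.01 to 0.45, adjusted p = 0.194). Its second probe gave 0.60 and 0.91 for the changes, and there the difference between them passed (0.31, adjusted p = 0.0166). The genotype difference of Agpat3 in the Fasted state, 0.22 ± 0.08, lay at the threshold (adjusted p = 0.0508). It passed under several processing alternatives that used all 24 arrays, and by the second probe (0.16, adjusted p = 0.0470). It also passed when LWT Fed replicate 1 or 3, LWT Fasted replicate 2 or 3, or LKO Fasted replicate 2 or 4 was left out.

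Agpat2 showed smaller differences, with all 4 groups overlapping. It (probe at chr2:26448610-26448669) ranged from 15.82 to 16.39 (median 16.08) in LWT Fed, 15.63 to 16.04 (median 15.86) in LWT Fasted, 15.69 to 15.89 (median 15.76) in LKO Fed and 15.17 to 15.92 (median 15.67) in LKO Fasted livers. It was 1.19-fold lower in LKO in the Fed state (log2 difference -0.25 ± 0.08, adjusted p = 0.0441). That call was lost when any 1 of 11 arrays was left out (LWT Fed replicates 1, 2, 4 and 6, LWT Fasted 3 and 6, LKO Fed 1, 2, 3 and 5, and LKO Fasted 2, adjusted p up to 0.111), and with scaling by the 75th percentile in place of quantiles (-0.19, adjusted p = 0.120). It was also lost, at a log2 difference of -0.25 to -0.27, with no filter (adjusted p = 0.0722), with the row on the slide added (adjusted p = 0.0528), without LKO Fasted replicates 1 and 2 (adjusted p = 0.0528) and by the second probe (adjusted p = 0.0844). Its fasting change did not pass in LWT (-0.19 ± 0.08, 95% interval -0.36 to -0.02, adjusted p = 0.0701) or in LKO (-0.11 ± 0.09, 95% interval -0.30 to 0.08, adjusted p = 0.346). The change in LWT passed without array weights (-0.26, adjusted p = 0.0424), without LWT Fasted replicate 1 (-0.21, adjusted p = 0.0453) and without LKO Fasted replicates 4 and 6 (-0.19, adjusted p = 0.0425).

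**Figure D2:**
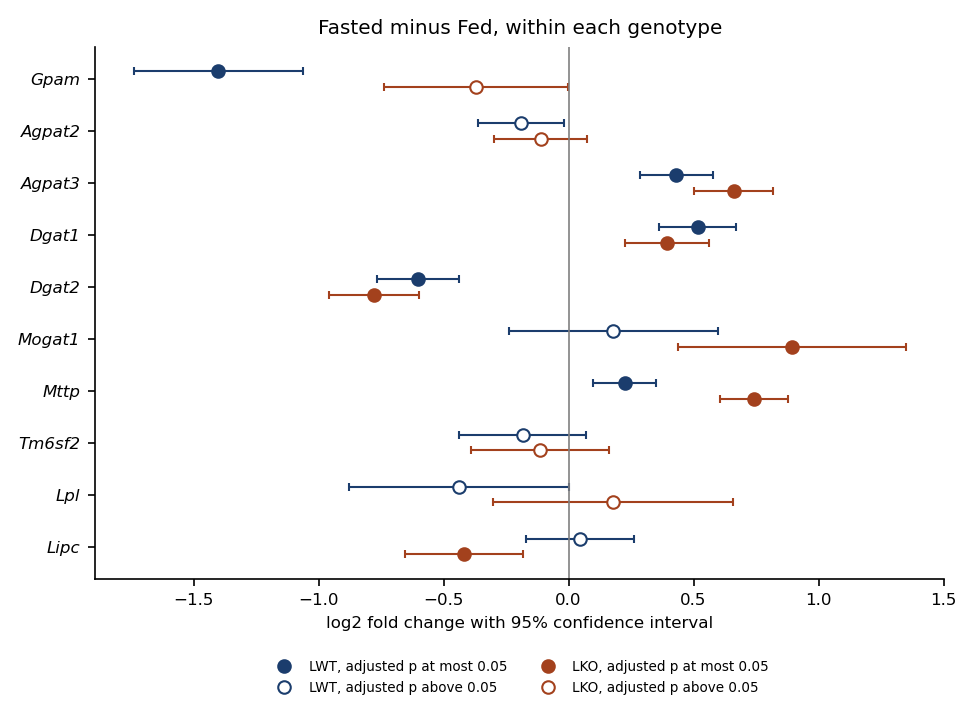
Log2 fold change with fasting (horizontal axis, with 95% confidence intervals) of each member in LWT and in LKO mice; filled points passed the test and open points did not. The intervals of the 2 genotypes are apart for Gpam (-1.40 in LWT, -0.37 in LKO), Mttp (0.22 and 0.74) and Lipc (0.05 and -0.42, where the test of the difference did not pass), and Dgat1 and Dgat2 moved in opposite directions in either genotype.

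Dgat1 and Dgat2 encode the unrelated diacylglycerol acyltransferases that make triglyceride. Dgat2 (probe at chr7:106302215-106302274) ranged from 16.66 to 16.98 (median 16.84) in LWT Fed, 15.90 to 16.43 (median 16.14) in LWT Fasted, 16.16 to 16.45 (median 16.31) in LKO Fed and 15.46 to 15.67 (median 15.52) in LKO Fasted livers. The LWT Fed livers were the high group and the LKO Fasted livers the low group, each without overlap with any other group, while the groups between them overlapped. Dgat2 passed in all 4 comparisons of 2 groups, as did Mttp, and it was the member whose groups did not overlap in any of the 4.

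Dgat2 fell 1.52-fold with fasting in LWT (log2 fold change -0.60 ± 0.08, adjusted p = 2.86e-06) and 1.71-fold in LKO (-0.78 ± 0.09, adjusted p = 2.34e-07). It was 1.42-fold lower in LKO than in LWT when Fed (-0.50 ± 0.08, adjusted p = 0.000333) and 1.60-fold lower when Fasted (-0.68 ± 0.09, adjusted p = 1.32e-05). The fasting changes of the genotypes differed by -0.17 ± 0.12 (95% interval -0.42 to 0.07, adjusted p = 0.403). Within the 3 slides the Fed difference between genotypes was -0.49, -0.62 and -0.46 and the Fasted difference -0.44, -0.75 and -0.73. The array held 1 probe for Dgat2.

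Dgat1 moved the other way. It ranged from 9.87 to 10.50 (median 9.96) in LWT Fed, 10.34 to 10.65 (median 10.50) in LWT Fasted, 9.84 to 10.06 (median 9.99) in LKO Fed and 10.14 to 10.60 (median 10.37) in LKO Fasted livers. The Fasted livers were the higher ones in both genotypes, apart from 1 LWT Fed liver that lay among them.

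Dgat1 rose 1.43-fold with fasting in LWT (log2 fold change 0.52 ± 0.07, adjusted p = 8.84e-06) and 1.31-fold in LKO (0.39 ± 0.08, adjusted p = 0.000447). Within the 3 slides the change was 0.24, 0.57 and 0.47 in LWT and 0.49, 0.41 and 0.36 in LKO. Between the genotypes the log2 difference of Dgat1 was -0.0025 ± 0.08 when Fed (95% interval -0.16 to 0.15, adjusted p = 0.988) and -0.12 ± 0.08 when Fasted (95% interval -0.29 to 0.04, adjusted p = 0.306). Its single probe of 60 bases spans 147 bases, chr15:76333128-76333274.

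Mogat1 encodes a monoacylglycerol acyltransferase, the entry to the parallel route. Its probe lies at chr1:78534646-78534705. It ranged from 7.11 to 8.65 (median 7.77) in LWT Fed, 7.54 to 8.42 (median 8.16) in LWT Fasted, 6.40 to 6.78 (median 6.59) in LKO Fed and 6.87 to 7.61 (median 7.44) in LKO Fasted livers. The LKO Fed livers were below every liver of the other 3 groups, and the other groups overlapped in part.

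Mogat1 was 2.40-fold lower in LKO when Fed (log2 difference -1.26 ± 0.20, adjusted p = 0.00035). That was the largest fitted genotype difference among the members in either state, with Lpl when Fasted (1.22 ± 0.23) close to it in size. It rose 1.86-fold with fasting in LKO (0.89 ± 0.22, adjusted p = 0.00232), and its change in LWT was 0.18 ± 0.20 (95% interval -0.24 to 0.60, adjusted p = 0.519). The difference between both changes did not pass (0.71 ± 0.30, 95% interval 0.10 to 1.33, adjusted p = 0.154). Fasted LKO and LWT livers differed by -0.55 ± 0.22 (adjusted p = 0.0823), a difference that passed without LWT Fed replicate 4 or LWT Fasted replicate 6 (adjusted p = 0.0321 and 0.0421), without the slide term (-0.61, adjusted p = 0.0391), where only the Fasted groups were fitted (-0.61, adjusted p = 0.0429) and without array weights (-0.68, adjusted p = 0.0197). Within the 3 slides the Fed difference was -1.65, -0.80 and -1.43. Both other Mogat1 probes were too dim to be tested. The brighter of them was well above background on 3 LWT Fed and 4 LWT Fasted arrays and on no LKO array.

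**Figure D3:**
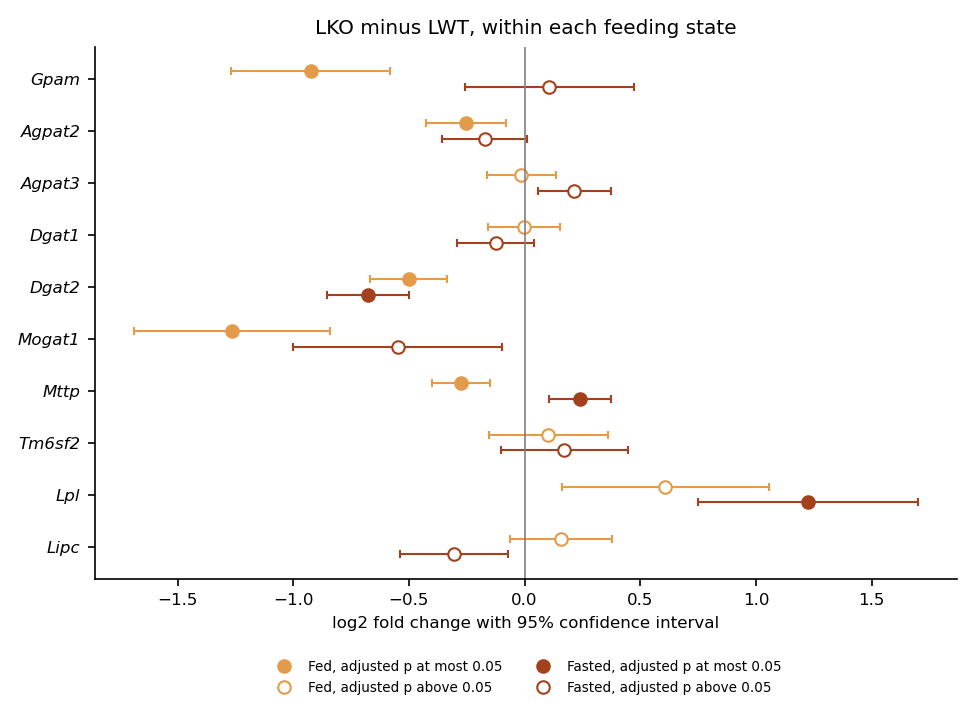
Log2 difference LKO minus LWT (horizontal axis, with 95% confidence intervals) of each member, when Fed and when Fasted; filled points passed the test and open points did not. In the Fed state the 5 members that passed lie left of 0, from Agpat2 (-0.25) to Mogat1 (-1.26), and in the Fasted state Dgat2 lies left of 0 (-0.68) and Mttp (0.24) and Lpl (1.22) right of it.

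Mttp encodes the microsomal triglyceride transfer protein, which loads lipid onto apolipoprotein B. Its signal (probe at chr3:137753868-137753927) ranged from 12.40 to 12.61 (median 12.51) in LWT Fed and from 12.65 to 12.85 (median 12.79) in LWT Fasted livers. It ranged from 12.12 to 12.45 (median 12.20) in LKO Fed and from 12.73 to 13.06 (median 12.98) in LKO Fasted livers. Fed and Fasted livers did not overlap in either genotype, and the LKO livers held both the lowest values, when Fed, and the highest, when Fasted.

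Mttp rose 1.17-fold with fasting in LWT (log2 fold change 0.22 ± 0.06, adjusted p = 0.0047) and 1.67-fold in LKO (0.74 ± 0.07, adjusted p = 7.97e-09). The changes differed between genotypes by 0.52 ± 0.09 (adjusted p = 0.00131), the smallest interaction p among the members. In the Fed state Mttp was 1.21-fold lower in LKO (-0.28 ± 0.06, adjusted p = 0.00383) and in the Fasted state it was 1.18-fold higher (0.24 ± 0.06, adjusted p = 0.0113), so the sign of the genotype difference turned with feeding.

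Within the 3 slides the difference between the fasting changes of Mttp was 0.44, 0.55 and 0.43, while the genotype difference when Fasted was 0.04, 0.28 and 0.28. A second, dimmer Mttp probe, placed from the record of another transcript at chr3:137806360-137806419, gave 0.31 for fasting in LKO (adjusted p = 0.00992) and 0.07 for fasting in LWT, which did not pass (adjusted p = 0.546). That probe also gave a Fed genotype difference of 0.0028 (adjusted p = 0.989) and an interaction of 0.24 (adjusted p = 0.266). It was well above background on only 3 of 6 arrays in each Fed group. These values, the fasting changes included, therefore say little about the brighter probe. The genotype difference of the brightest probe when Fasted did not pass where only those 2 groups were fitted (0.23, adjusted p = 0.0544).

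Tm6sf2 encodes a membrane protein that takes part in lipidation of VLDL. Its probe lies at chr8:72603892-72603951. It ranged from 11.05 to 11.77 (median 11.29) in LWT Fed, 10.79 to 11.52 (median 11.04) in LWT Fasted, 11.05 to 11.59 (median 11.39) in LKO Fed and 11.09 to 11.91 (median 11.21) in LKO Fasted livers. All 4 groups overlapped, and Tm6sf2 was the only member that passed in none of the 5 comparisons. Its log2 differences ran from -0.18 ± 0.12 for fasting in LWT (95% interval -0.44 to 0.07) to 0.17 ± 0.13 for genotype when Fasted (95% interval -0.10 to 0.45).

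Lpl encodes lipoprotein lipase, which hydrolyses the triglyceride of VLDL at the endothelium and is made mainly outside hepatocytes in adult animals. Its signal (probe at chr8:71430267-71430326) ranged from 9.29 to 10.34 (median 9.86) in LWT Fed, 8.90 to 9.83 (median 9.50) in LWT Fasted, 10.12 to 10.88 (median 10.45) in LKO Fed and 10.22 to 11.46 (median 10.58) in LKO Fasted livers. Each LKO Fasted liver was above each LWT Fasted liver, and the Fed groups overlapped.

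Lpl was 2.34-fold higher in LKO than in LWT when Fasted (log2 difference 1.22 ± 0.23, adjusted p = 0.00067). When Fed the difference was 0.61 ± 0.22 (95% interval 0.16 to 1.05) and did not pass (adjusted p = 0.0597). It passed there without LWT Fed replicate 1, LWT Fed replicate 6, LKO Fed replicate 6 or LKO Fasted replicate 6 (adjusted p = 0.0307 to 0.0462) and without LKO Fasted replicates 4 and 6 (adjusted p = 0.0200). It also passed with scaling by the 75th percentile (0.62, adjusted p = 0.0324), with the deposited log2 table (0.61, adjusted p = 0.0339), with the replicate block (0.65, adjusted p = 0.0319) and where only the Fed groups were fitted (0.60, adjusted p = 0.0435). The change of Lpl with fasting was 0.18 ± 0.23 in LKO (adjusted p = 0.577) and -0.44 ± 0.21 in LWT (adjusted p = 0.106). In LWT it passed with no slide term or with slide as a random block (-0.48, adjusted p = 0.0455 in both), within slide 2 (-0.82, adjusted p = 0.00837), without LWT Fed replicate 4 (-0.58, adjusted p = 0.0317) and without LKO Fasted replicates 4 and 6 (-0.43, adjusted p = 0.0481). The genotypes' changes differed by 0.62 ± 0.31 (95% interval -0.04 to 1.27, adjusted p = 0.250).

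The Fasted difference of Lpl was 1.15, 1.20 and 1.53 within the 3 slides. The highest Lpl values, 11.46 and 11.39, were those of LKO Fasted replicates 4 and 6. The summed signal of 7 Kupffer cell markers (the resident macrophages of the liver) was highest of all arrays in LKO Fasted replicate 6, at 16.19, and was 15.07 in replicate 4, against 14.02 to 15.28 on the other arrays. No Kupffer marker passed in any of the 5 comparisons. Without both arrays the Fasted difference was 0.92 (adjusted p = 0.0028). The summed signal of the 5 adipocyte markers kept by the filter was 8.75 to 9.21 in LKO Fasted livers and 8.94 to 12.46 in LWT Fasted livers. Of these markers only Cfd differed by genotype, at 5.69 to 7.41 in LKO Fasted and 6.19 to 12.35 in LWT Fasted livers. Adipoq did not pass the filter on dim probes. The part of either cell type in the difference was not tested.

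The array held 6 Lpl probes, and they did not give the same picture. The second brightest repeated the Fasted difference (1.23, adjusted p = 0.000724), and the fifth passed there with a smaller one (0.60, adjusted p = 0.0126). The third brightest, placed from the record of a different transcript, passed in the Fed state (0.78, adjusted p = 0.0014) and not in the Fasted state (0.13, adjusted p = 0.621). That probe fell with fasting in LKO (-0.50, adjusted p = 0.0185), where no other Lpl probe passed and the brightest gave 0.18. Its difference between the fasting changes was -0.65 (adjusted p = 0.0790), against 0.62 for the brightest. The fourth and the sixth, dim probes that were not well above background on every array, passed in neither state. All 6 gave positive differences in both states. The call for Lpl thus differed with the probe, and position, transcript and brightness of the probes cannot be told apart here.

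**Figure D4:**
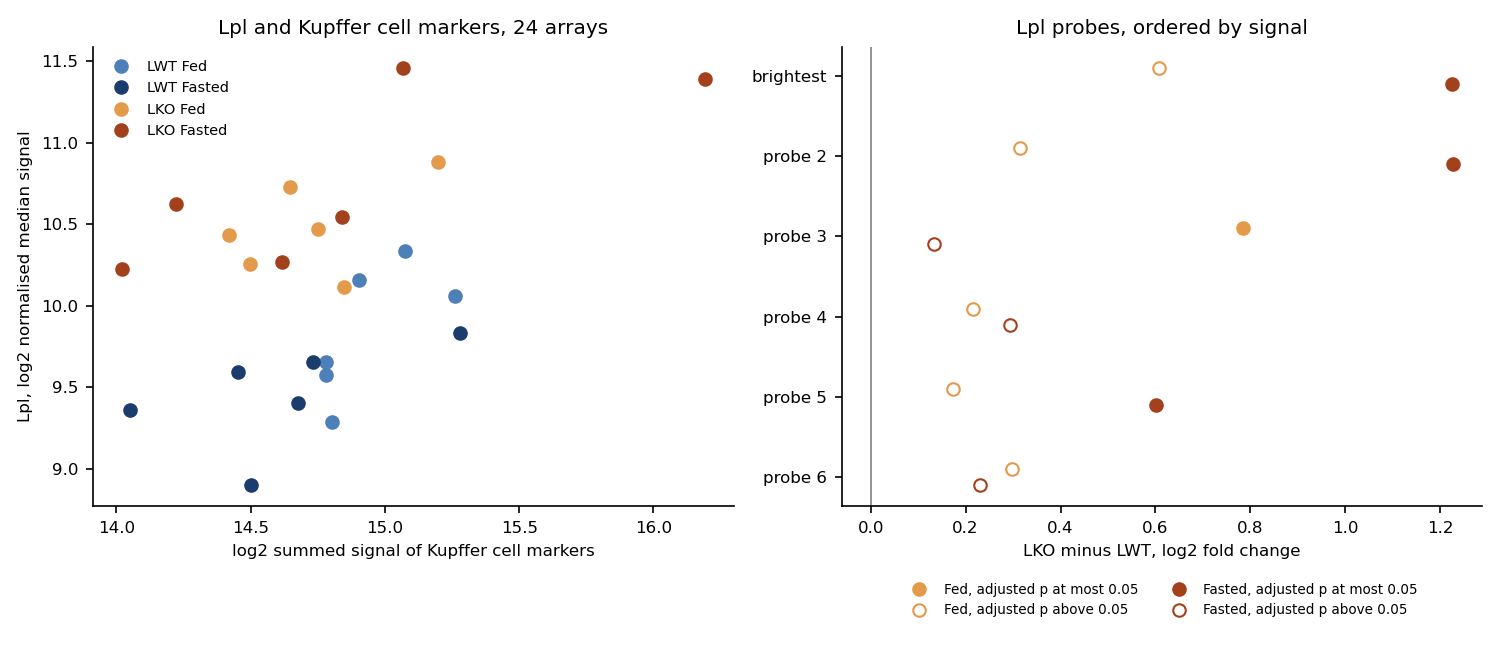
Left, log2 normalised signal of Lpl (vertical axis) against the log2 summed signal of 7 Kupffer cell markers (horizontal axis) on the 24 arrays, coloured by group. Right, log2 difference LKO minus LWT (horizontal axis) of each of the 6 Lpl probes in the Fed and Fasted states, ordered by signal, with filled points for an adjusted p of at most 0.05. LKO Fasted replicate 6 has the highest Kupffer sum (16.19), and 3 of the 6 probes passed in the Fasted state.

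Lipc encodes hepatic lipase, which acts on remnants and high density lipoprotein in the sinusoids. Its single probe spans chr9:70660699-70664375. It ranged from 9.99 to 10.36 (median 10.11) in LWT Fed, 9.67 to 10.42 (median 10.11) in LWT Fasted, 10.16 to 10.60 (median 10.23) in LKO Fed and 9.56 to 10.24 (median 9.82) in LKO Fasted livers. The LKO Fasted livers were the low group, but they overlapped each of the others.

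Lipc fell 1.34-fold with fasting in LKO (log2 fold change -0.42 ± 0.11, adjusted p = 0.00516), and its change in LWT was 0.05 ± 0.10 (95% interval -0.17 to 0.26, adjusted p = 0.766). The difference between the changes lay near the threshold (-0.46 ± 0.15, adjusted p = 0.0720). It passed with all arrays of the deposited log2 table (-0.46, adjusted p = 0.0485), without LKO Fasted replicate 2 (-0.58, adjusted p = 0.0151), without LWT Fasted replicate 2 (-0.50, adjusted p = 0.0406) and without LKO Fasted replicates 1 and 2, which stand apart from their group (-0.60, adjusted p = 0.0141). The genotype difference when Fasted was -0.31 ± 0.11 (adjusted p = 0.0602). That difference passed with the deposited log2 table (-0.30, adjusted p = 0.0493), without LKO Fasted replicates 1 and 2 (-0.44, adjusted p = 0.0120), and without LKO Fasted replicate 2 (-0.42, adjusted p = 0.00837), LWT Fasted replicate 2 (-0.34, adjusted p = 0.0280) or LWT Fasted replicate 3 (-0.37, adjusted p = 0.0356).

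Groups of arrays did not overlap in 4 members for fasting in LWT (21.6% of genes), in 5 for fasting in LKO (22.1%), in 2 for genotype when Fed (8.61%) and in 2 for genotype when Fasted (8.67%). Ordered by mean level, Gpam ran LWT Fed, LKO Fed, LKO Fasted and LWT Fasted, of which neither the middle pair nor the last pair passed the test between neighbours. Mttp ran LKO Fasted, LWT Fasted, LWT Fed and LKO Fed, each step passing the test between its 2 groups.

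Other genes of the pathway were followed in 3 lists. Of 16 genes of glycerolipid synthesis, 6 rose and 7 fell with fasting in LWT, and 7 rose and 4 fell in LKO. Over all genes 19.4% were higher and 21.3% lower in LWT, and 19.6% and 21.7% in LKO. Gpat3, a glycerol-3-phosphate acyltransferase of the endoplasmic reticulum, rose by 3.07 ± 0.19 on the log2 scale in LWT (adjusted p = 9.17e-11) and by 4.31 ± 0.21 in LKO (adjusted p = 1.36e-12), opposite in direction to Gpam. Its signal ranged from 7.39 to 8.83 in LWT Fed livers and from 11.11 to 11.76 in LWT Fasted livers. In LKO the range was 7.09 to 7.77 when Fed and 11.29 to 11.95 when Fasted.

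Gk, glycerol kinase, which makes the glycerol-3-phosphate backbone from glycerol, rose by 1.23 ± 0.10 in LWT and 2.20 ± 0.10 in LKO (adjusted p = 1.53e-09 and 9.96e-13). Acsl1, an acyl-CoA synthetase that activates fatty acids, rose by 0.92 ± 0.11 in LWT and 1.43 ± 0.12 in LKO. The related Acsl3 fell by 1.29 on the log2 scale in LWT and fell by 0.90 in LKO. The fasting change was more positive in LKO for 3 genes of the list and more negative for none at the threshold (3.93% and 3.6% of all genes). The 3 were Gpat3 (1.24 ± 0.29, adjusted p = 0.0113), Gk (0.97 ± 0.14, adjusted p = 0.000303) and Acsl5 (0.61 ± 0.15, adjusted p = 0.0181).

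Between the genotypes in the Fed state, 4 of the 16 genes were lower in LKO and none passed as higher (7.47% and 8.72% of all genes). Gpat3 (-0.97 ± 0.20, adjusted p = 0.00199), Gpd1, the glycerol-3-phosphate dehydrogenase that forms the backbone from a glycolytic intermediate (-0.60 ± 0.13, adjusted p = 0.0036), and Mogat2 (-0.42 ± 0.14, adjusted p = 0.0479) had the largest differences. In the Fasted state 3 were higher in LKO and none passed as lower (9.79% and 10.2% of all genes). These were Acsl4 (0.85 ± 0.14, adjusted p = 0.00021), Gk (0.75 ± 0.10, adjusted p = 3.33e-05) and Acsl1 (0.34 ± 0.12, adjusted p = 0.0491).

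Of 14 genes of VLDL assembly and export, 6 rose and 5 fell with fasting in LWT, and 4 rose and 5 fell in LKO, where 40.7% and 41.3% of all genes passed in either direction. A1cf, a factor of apolipoprotein B mRNA editing, rose by 0.75 ± 0.11 in LWT and 0.74 ± 0.12 in LKO. Sort1, a sorting receptor that binds apolipoprotein B, fell by 0.72 on the log2 scale in LWT and fell by 1.09 in LKO, and Mia3, a cargo receptor at the exit sites of the endoplasmic reticulum, rose by 0.49 ± 0.09 in LWT, with a change of 0.07 in LKO that did not pass (adjusted p = 0.603).

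The fasting change differed between genotypes for 1 of the 14 genes, which lies near the share of all genes (7.53%). That gene was Sar1b, the GTPase of the vesicle coat that carries large lipoproteins out of the endoplasmic reticulum (0.30 ± 0.08, adjusted p = 0.0181). It rose by 0.15 ± 0.05 in LWT and 0.45 ± 0.06 in LKO, and was lower in LKO when Fed (-0.38 ± 0.05, adjusted p = 8.36e-05). When Fed, 1 gene of the list was higher and 4 were lower in LKO (16.2% of all genes passed), among them Ces1d, a carboxylesterase that mobilises stored triglyceride (-0.43 ± 0.13), and Cideb, a droplet protein (-0.32 ± 0.07). When Fasted, none passed as higher and 4 were lower (20% of all genes passed), the largest differences being those of Ces1d (-0.54 ± 0.14), the lipase Aadac (-0.39 ± 0.07) and Mia2 (-0.37 ± 0.08).

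Of 11 regulators of plasma lipolysis, 3 rose and 2 fell with fasting in LWT, and 4 rose and 5 fell in LKO, against the same 40.7% and 41.3% of all genes. The count in LWT lies near that share. The inhibitor of lipoprotein lipase Angptl4 rose by 2.11 ± 0.19 in LWT and 2.06 ± 0.21 in LKO. Angptl8, a feeding-induced regulator of lipoprotein lipase, fell by 2.75 on the log2 scale in LWT and fell by 2.21 in LKO. Sel1l, of the quality control of lipase folding, fell by 0.81 and, in LKO, fell by 1.02.

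None of the 11 passed as higher in LKO in either state, and 5 were lower in each (7.47% of all genes when Fed and 10.2% when Fasted). When Fed these included Angptl8 (-1.44 ± 0.23, adjusted p = 0.000313), Apoc2, the activator of lipoprotein lipase (-0.52 ± 0.06, adjusted p = 3.22e-05), and Gpihbp1, its capillary anchor, which is also in the endothelial list (-0.44 ± 0.12, adjusted p = 0.0189). When Fasted they included Angptl8 (-0.91 ± 0.24, adjusted p = 0.0112) and Lipg (-0.39 ± 0.12, adjusted p = 0.0280). The fasting change of Apoc2 was more positive in LKO (0.58 ± 0.09, adjusted p = 0.000836).

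**Figure D5:**
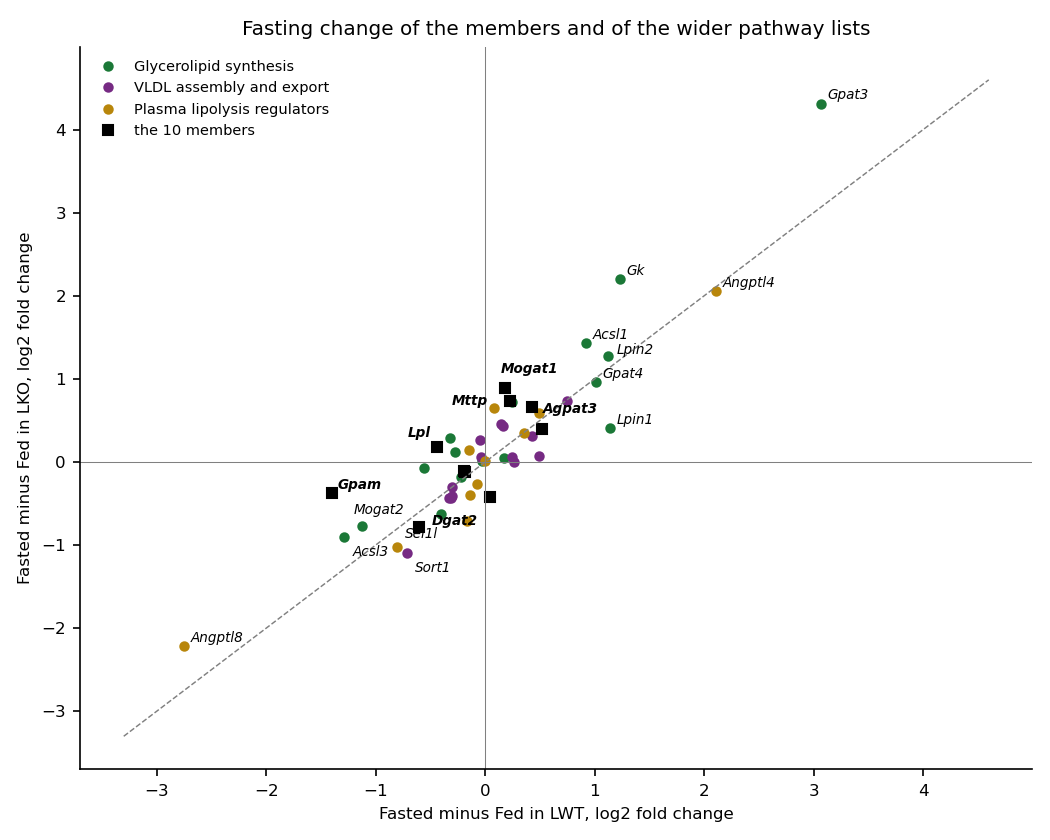
Log2 fold change with fasting in LWT (horizontal axis) against that in LKO (vertical axis) for the 10 members (black squares) and the genes of the 3 wider lists (coloured points); the dashed line marks equal changes. Gpat3 lies far from the origin at 3.07 and 4.31, Angptl8 at -2.75 and -2.21, and Gpam lies above the line at -1.40 and -0.37.

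The genes whose profile over the 24 arrays was most like that of Mttp, by the root mean square difference of mean-free log2 values among 21478 genes, were 2 transcripts known in the files by identifiers (NAP114164-1 at 0.106 and ENSMUST00000121864 at 0.107) and Tmed4 (0.113), a cargo receptor of the early secretory pathway. The median over all genes was 0.351. For Gpam they were Rpia (0.284), ribose-5-phosphate isomerase of the pentose phosphate pathway, Rassf6 (0.287) and 1 transcript known by its position (0.292), where the median over all genes was 0.668. This likeness is a description over arrays that share slides and groups.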

How the data were processed

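The authors ran RNA of 24 livers on 1-colour Agilent mouse arrays, and Feature Extraction 10.10.1.1 gave, per the file headers, linear spot intensity values and background flags; probes are placed on mm9. The authors also deposited a table of log2 values, which per their methods were filtered, corrected for washing bath and quantile-normalised. The bath of each array was not given in the sources used here, so slide served as the batch term. Control spots were left out, the spots of 300 probes printed 10 times were averaged, and 90 missing values stayed missing. Probes well above background on at least 5 of 6 arrays of any group were kept (32197 of 56605). Their log2 median signals were quantile-normalised and fitted over all 24 arrays with limma 3.58.1 (R 4.3.3), with group means, slide and array weights, for 5 contrasts. P-values were adjusted by the Benjamini-Hochberg method over all kept probes; a fold minimum of 1.5 was a second rule. Counts of genes use the brightest probe of each of 21488 genes tested. Each array is 1 mouse, so p-values measure the spread between mice, and 6 arrays per group limit the precision. On data simulated for fasting in LWT over 32151 probes, 95% of 100 probes changed by 1 and 81% of 100 changed by 0.58 on the log2 scale were recovered. No other probes were changed there, and the noise was equal on every array. In the real comparison 40.7% of genes passed, so these rates do not give the power in these data.

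The members and the gene lists were chosen with earlier results of these data known. Genes of the 3 pathway lists were named by a fixed rule, the 3 with the largest log2 change among those that passed in each contrast; 1 gene that the rule names is not reported here. Positions relative to exons and untranslated regions were not examined, since no mm9 annotation was used here. Promoters are those of RefSeq on GRCm38.p6, used for their sequence only. Alternatives were other background corrections, scalings, filters and probes, the deposited log2 table, other treatments of slide and array weights, within-slide fits, the replicate number as a term, and leaving out arrays.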

Additional observations from a re-analysis of the deposited data

Results flagged for a closer look

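In 40 sets of 6 arrays (10 members in 4 groups), 3 held an array far from the other 5, by the gap to its neighbour over the whole range, beyond Dixon's 95% limit for 6 values; chance gives about 1 in 20 such sets. All 3 were LKO Fasted replicate 4. Its Mogat1 signal was 6.87, next to 7.35 (gap over range 0.648), its Mttp signal was 12.73, next to 12.95 (0.666), and its Tm6sf2 signal was 11.91, next to 11.35 (0.675). That array was thus low for 2 of these members and high for the other. The same array held the highest Lpl signal, 11.46.

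The fasting change differed between the genotypes, by the test of the difference itself, for Gpam (1.03 on the log2 scale, adjusted p = 0.0123) and Mttp (0.52, adjusted p = 0.00131), with a more positive change in LKO for both. Without LKO Fasted replicates 4 and 6, an alternative chosen after seeing the data, the differences were 0.999 (adjusted p = 0.0255) for Gpam and 0.53 (adjusted p = 0.00146) for Mttp.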

How the results depend on the processing

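Of 21 member comparisons that passed, 19 kept an adjusted p of at most 0.05 in the same direction under each alternative processing or fit other than the within-slide fits, which rest on 2 arrays a group, and the second probes; the added fold minimum is counted below. The exceptions were Agpat2 in the Fed state and Mttp in the Fasted state where only those groups were fitted. The replicate numbers did not pair the arrays (same-number correlations -0.18 to 0.28); with the replicate block the counts of members that passed were 5, 6, 6, 3 and 2 for fasting in LWT, fasting in LKO, genotype when Fed, genotype when Fasted and the difference between fasting changes, against 5, 6, 5, 3 and 2 without it. Leaving out 1 array gave 5 to 6, 6 to 7, 4 to 6, 3 to 5 and 2 to 3. The count for genotype when Fasted was 5 without LWT Fasted replicate 2 or 3 or LKO Fasted replicate 2, without LKO Fasted replicates 1 and 2, with the deposited log2 table, with no slide term and with slide as a random block. Within slide 1 the 5 counts were 2, 2, 0, 0 and 0. Within slide 2, 2 members passed for genotype when Fed and 1 for the difference between fasting changes, and within slide 3 the counts were 3 for fasting in LWT and 0 for those 2. By the second brightest probe 2 members passed for genotype when Fed, namely Gpam and, by its only probe, Dgat2. The second probe of Mogat1 was too dim to be tested, so Mogat1 could not pass there. With a fold above 1.5 the counts were 2 for fasting in LWT, 2 for genotype when Fed and 1 for the difference between fasting changes. The cause of these shifts was not tested.

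Among comparisons that passed, 1 changed sign, Mttp when Fed by its second probe (0.0028), a probe well above background on 3 of 6 arrays in each Fed group, so that its sign there carries no information. The remaining changes of sign were in values that passed neither way. For fasting in LWT these were Mogat1 (-0.30), Lpl (0.10) and Lipc (-0.31) within slide 1, and Lipc within slide 2 (-0.028) and with no array weights (-0.043). For fasting in LKO they were Tm6sf2 within slide 1 (0.19), Lpl within slide 2 (-0.018) and Lpl without LKO Fasted replicates 4 and 6 (-0.13). For genotype when Fed they were Agpat3 with no filter (0.00196), within slide 1 (0.20) and with no array weights (0.035), Dgat1 with normexp (0.0038), within slides 2 and 3 (0.012 and 0.052), with the row on the slide (0.00044) and with the replicate block (0.018), and Tm6sf2 within slides 1 and 2 (-0.11 and -0.094). For genotype when Fasted they were Gpam within slide 1 (-0.0014) and by its second probe (-0.056), Agpat3 within slide 1 (-0.075), Tm6sf2 within slide 2 (-0.14) and Lipc within slide 1 (0.043). For the difference between fasting changes they were Agpat2 within slide 2 (-0.0043) and by its second probe (-0.063), Agpat3, Dgat1 and Dgat2 within slide 1 (-0.28, 0.25 and 0.052), and Tm6sf2 within slides 2 and 3 (-0.042 and -0.048) and without LKO Fasted replicates 4 and 6 (-0.0045). Leaving out 1 array gave -0.030 to 0.11 for Lipc and fasting in LWT, -0.033 to 0.30 for Lpl and fasting in LKO, -0.031 to 0.019 for Agpat3 and -0.039 to 0.025 for Dgat1 when Fed, and -0.028 to 0.14 for Tm6sf2 and the difference between fasting changes.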
